A study of Mus musculus with 3072 samples.

Results

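The Rab family of small GTPases was followed across microglia, the resident macrophages of the brain, from mice with and without amyloid plaques and with and without Apoe. Members were taken by name alone: every gene of the count table called Rab followed by a number, with at most 1 letter and 1 further digit, which gave 57 of 29474 genes. The study set mice lacking Apoe, which encodes a lipid-carrying apolipoprotein, beside mice that have it, in brains with plaques and without. Single live CD11b-positive cells were sorted from the dissected tissue and polyadenylated RNA was read with a modified SmartSeq2 protocol, 1 cell per well. The 1713 cells formed 6 groups, all male. Cortex of C57BL/6 mice and of C57BL/6-ApoeKO mice was taken at 18 months. Cortex and hippocampus of APP/PS1 mice, which carry the APPswe and PS1dE9 transgenes on an intact Apoe background, were taken at 17 months. Cortex and hippocampus of APP/PS1-ApoeKO mice, bred by crossing the transgenic line with the Apoe null line until homozygous, were taken at 18 months. Apoe is deleted in every cell of the knockout mice, not in microglia alone. The promoters that drive the transgenes are not given in the labels.

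Rab proteins are molecular switches that sit on membranes when bound to GTP and recruit the motors, tethers and fusion factors of 1 trafficking step, so that each compartment of the cell carries its own set. Exchange factors load them with GTP, GTPase-activating proteins turn them off, and a lipid tail added by a prenyl transferase holds them on the membrane. In macrophages and microglia, the endosomal and lysosomal members carry phagocytosed cargo to digestion. Rab32 belongs to the branch that serves lysosome-related organelles and phagosomes. It is activated by the BLOC-3 complex of Hps1 and Hps4, binds the adaptor Ankrd27 (VARP), and is known as a partner of the kinase LRRK2.

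Levels are given as reads per 1000000 counted reads of a group (RPM), and, where genes are compared with each other, as RPM per kilobase of exon (RPKM). The groups held between 74767907 and 241536311 reads, and the median cell between 442917 and 765704. Apoe itself, the check of the genotype, was at 485 RPM in C57BL/6 cortex, 13406 in APP/PS1 cortex and 11919 in APP/PS1 hippocampus, against 2.96, 0.0669 and 0.745 RPM in C57BL/6-ApoeKO cortex, APP/PS1-ApoeKO cortex and APP/PS1-ApoeKO hippocampus. All 8 microglial markers had reads in every group, with a summed level of 46010 to 55427 RPM. The 3 neuronal markers summed to at most 16.1 RPM, the 3 oligodendrocyte markers (Mog had no reads) to at most 57.9 RPM, the 3 monocyte markers to 3.16 to 28.3 RPM and the 5 markers of border-associated macrophages to at most 8.85 RPM; their part in the results was not tested. Animals are not identified in the labels, and each group is therefore 1 sample: differences between 2 groups are ratios with exact 95% intervals that cover the counting of reads only, not the spread between animals or cells, and they carry no p-value. Reads have no molecular identifiers, so they are not independent molecules. For bulk sums of this kind, fewer cells with a transcript and less of it per cell cannot be told apart from the level alone. The share of cells with a read is given beside it, and depends on both. C57BL/6 and C57BL/6-ApoeKO cells were sequenced in the same 2 lanes, and so were both APP/PS1 tissues. The APP/PS1 groups were taken 1 month earlier than all others and shared no lane with them. For that reason the effects of genotype, sequencing lane and age cannot be told apart where APP/PS1 is set against APP/PS1-ApoeKO or C57BL/6. The APP/PS1-ApoeKO cortex cells came from 1 lane and 2 plate numbers, those of C57BL/6-ApoeKO cortex and APP/PS1-ApoeKO hippocampus from 2 and 4. No comparison with APP/PS1-ApoeKO cortex was made within a lane, so the part of lane in them was not tested.

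Of the 57 members, 54 had reads and 41 had reads in all 6 groups. A mean of at least 1 RPM over the 6 sums, the level required for a member to enter a comparison, was reached by 43, and a mean of at least 20 RPM by 26. Rab3b, a neuronal secretory Rab, Rab9b and Rab15 had no reads in any group. Another 11 members had reads but stayed under 1 RPM: Rab3a and Rab3c of synaptic vesicles, Rab27b of secretory granules, Rab25 of epithelial recycling, and Rab26, Rab30, Rab33a, Rab39b, Rab40b, Rab42 and Rab44. The whole family summed to 2644 RPM in C57BL/6 cortex, 2669 in C57BL/6-ApoeKO cortex, 2292 in APP/PS1 cortex, 2765 in APP/PS1-ApoeKO cortex, 2268 in APP/PS1 hippocampus and 2637 in APP/PS1-ApoeKO hippocampus. That is between 0.227% and 0.276% of all reads, with both APP/PS1 groups below the other 4. These sums are not corrected for composition. The factors of edgeR's correction (TMM) were 0.932 in APP/PS1 cortex, 0.938 in APP/PS1 hippocampus and 0.978 to 1.11 in the others. The part of composition in this order was not tested.

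Per length, late endosomal, early endosomal, secretory-pathway and recycling members led the family in turn. Rab7, which drives the fusion of late endosomes and phagosomes with lysosomes, had the highest mean, 79.1 RPKM, or 10.8% of the summed RPKM of all members. Rab31, an early endosomal member close to Rab22a, followed with 74.5 RPKM, then Rab1a of transport from the endoplasmic reticulum to the Golgi with 67.4 RPKM and Rab11a of the recycling endosome with 65.05 RPKM. The ranges of these 4 over the groups overlapped, so their order is not fixed by these sums. Rab24, linked to autophagy, had 47.3 RPKM, and Rab1b had 43.4 RPKM. The exons of Rab24 overlap Prelid1 on the other strand, and those of Rab7 overlap the predicted gene Gm5577 there. The sources used here do not say whether counting used the strand. The exons of Rab20, Rab2b, Rab5a, Rab6a, Rab10, Rab11b, Rab22a, Rab33b and Rab40c also overlap a gene on the other strand. Those of Rab11a overlap the predicted gene Gm47308 on the same strand. The exons of Rab4b, Rab18, Rab27a and Rab43 also overlap a gene on the same strand, and those of Rab32 overlap none.

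The 3 members grouped here by role under lysosome-related organelles and phagosomes were all among the upper 14. Rab20, which acts in phagosome maturation, had 35.4 RPKM, Rab32 had 24.9 RPKM and Rab29 had 16.2 RPKM. Together they made up 10.4% of the summed RPKM, against 29.7% for the 16 members of the endoplasmic reticulum and Golgi, 19.1% for the late endosome and lysosome, 15.6% for recycling, 14.1% for the early endosome, 9.40% for secretion and exocytosis, and 1.65% for the remaining 5. The count table has no row named Rab38, the close relative of Rab32, so it was not analysed here.

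**Figure D1:**
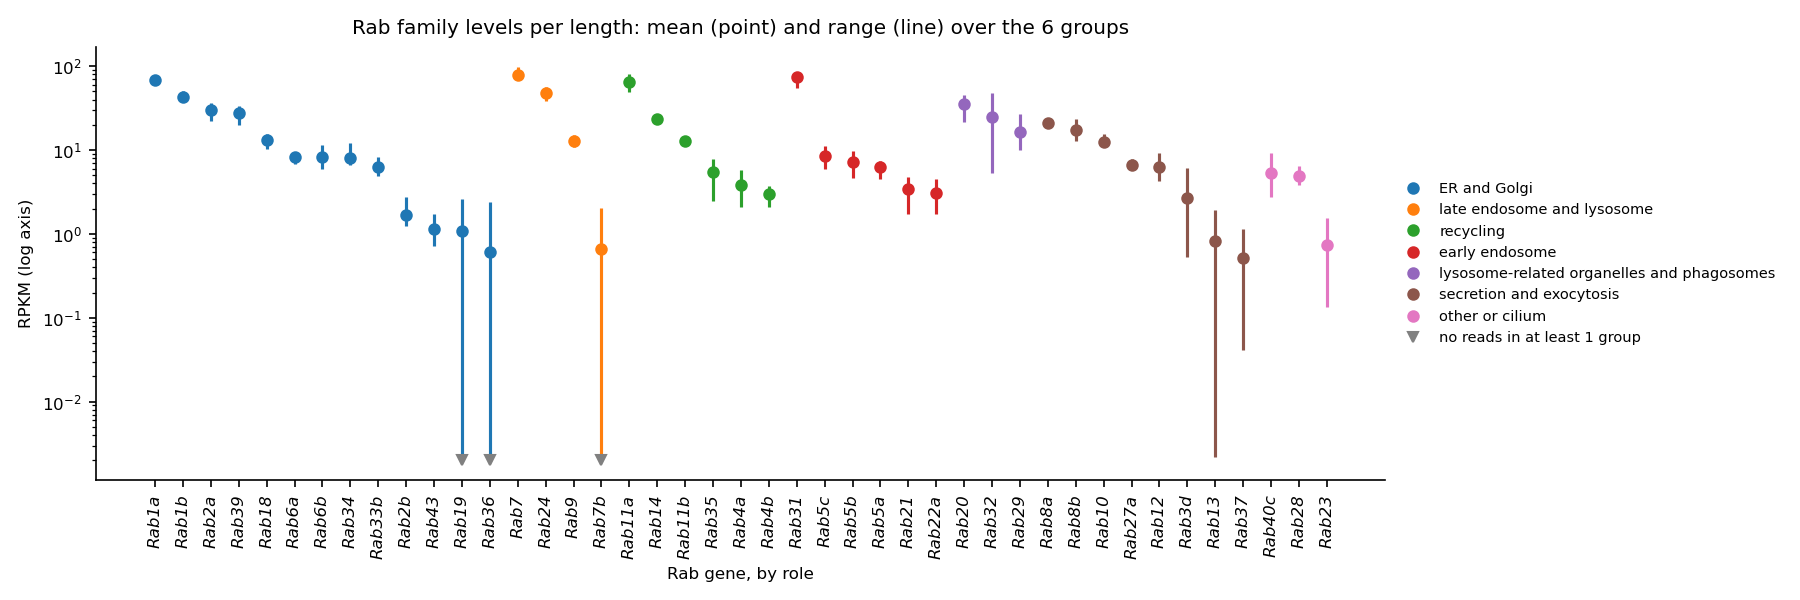
Mean level per length (RPKM, log axis) of the 43 Rab members at 1 RPM or more, by role, with lines from the lowest to the highest of the 6 groups and triangles where a group had no reads. Rab7, Rab31, Rab1a and Rab11a lie at the upper end with short lines, while the line of Rab32 runs over a 9.20-fold range.

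Among the 26 members with a mean of at least 20 RPM, the highest group was less than 1.5 times the lowest for 11: Rab1a, Rab1b, Rab6a, Rab7, Rab8a, Rab9, Rab10, Rab11b, Rab14, Rab24 and Rab27a. Rab14, which acts between the Golgi and endosomes, ran from 297.2 to 361.9 RPM, Rab1a from 225.7 to 278.3 RPM, and Rab8a, an exocytic member, from 92.8 to 113.9 RPM. Highest and lowest were at least 2-fold apart for 5 of the 26. These were Rab32 (9.20-fold), Rab29 (2.65-fold), Rab22a (2.62-fold), Rab20 (2.11-fold) and Rab5b (2.10-fold). All 3 members grouped by role under lysosome-related organelles and phagosomes are among the 5, but they were lowest in different groups. Rab32 was lowest in APP/PS1 cortex, Rab29 in APP/PS1-ApoeKO cortex and Rab20 in APP/PS1 hippocampus. The share of all genes this far apart, or this close, is not given here.

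Rab32 was high in the 3 groups without Apoe and low in the 3 with it. Its level was 23.1 RPM in C57BL/6 cortex and 100.01 RPM in C57BL/6-ApoeKO cortex, a ratio of 4.33 (95% interval 4.20 to 4.46). In cortex with amyloid it was 12.3 RPM in APP/PS1 and 112.9 RPM in APP/PS1-ApoeKO mice, a ratio of 9.20 (8.79 to 9.64). In hippocampus it was 16.2 RPM in APP/PS1 and 85.2 RPM in APP/PS1-ApoeKO mice, a ratio of 5.26 (5.04 to 5.50). The groups did not overlap: the lowest knockout group stood above the highest intact one. The share of all genes whose 3 knockout groups lie apart from the 3 intact ones is not given here, for Rab32 or for the genes below.

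Splitting each group by the plate number in the labels, which marks a part of its wells and not an animal, gave the same order. In C57BL/6 cortex the 4 parts had 6.53, 27.7, 28.9 and 23.5 RPM of Rab32, against 53.7, 104.8, 137.7 and 91.9 RPM in the 4 parts of C57BL/6-ApoeKO cortex. In APP/PS1 cortex the 4 parts had 4.40, 18.6, 6.62 and 15.9 RPM, against 94.7 and 127.1 RPM in the 2 parts of APP/PS1-ApoeKO cortex. In hippocampus the 4 parts had 17.1, 30.03, 9.64 and 9.93 RPM in APP/PS1 against 48.9, 95.8, 100.1 and 69.3 RPM in APP/PS1-ApoeKO. Every knockout part of Rab32 was above every intact part. The share of all genes whose parts do not overlap is not given here, for Rab32 or for the members below. Within the 2 lanes shared by the C57BL/6 genotypes, Rab32 was at 15.6 against 94.3 RPM in one and at 29.8 against 105.6 RPM in the other, so the difference was seen inside each lane.

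The share of cells with a Rab32 read differed as well. A higher level per cell also raises this share, so it does not tell more cells with the transcript from more of it per cell. With every cell thinned to 100000 reads, a read was found in 5.52% of C57BL/6 cells (exact 95% interval 3.30% to 8.59%) and in 23.1% of C57BL/6-ApoeKO cells (18.5% to 28.2%). The share was 4.18% (2.24% to 7.04%) in APP/PS1 and 23.7% (17.5% to 30.8%) in APP/PS1-ApoeKO cortex. In hippocampus it was 5.51% (3.12% to 8.93%) and 23.2% (18.7% to 28.2%). The 3 shares without Apoe lay within one another's intervals, and none of their intervals reached those of the intact groups. These intervals cover the counting of cells only and leave out the spread between animals, which are not identified. Their separation is therefore not a test of genotype. Unthinned, 21 cells (6.44%) of C57BL/6 and 81 cells (25.9%) of C57BL/6-ApoeKO cortex had a read, 15 (4.82%) and 43 (25.4%) in the APP/PS1 cortex pair and 17 (6.23%) and 87 (27.1%) in the hippocampus pair. In the cells with a read, the median level was 230, 212.99 and 238.9 RPM in the intact groups of C57BL/6 cortex, APP/PS1 cortex and APP/PS1 hippocampus, and 291.4, 370 and 171.7 RPM in their knockout counterparts. These medians were higher in both knockout cortices and lower in the knockout hippocampus. No single cell held more than 18.8% of a group's Rab32 reads.

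**Figure D2:**
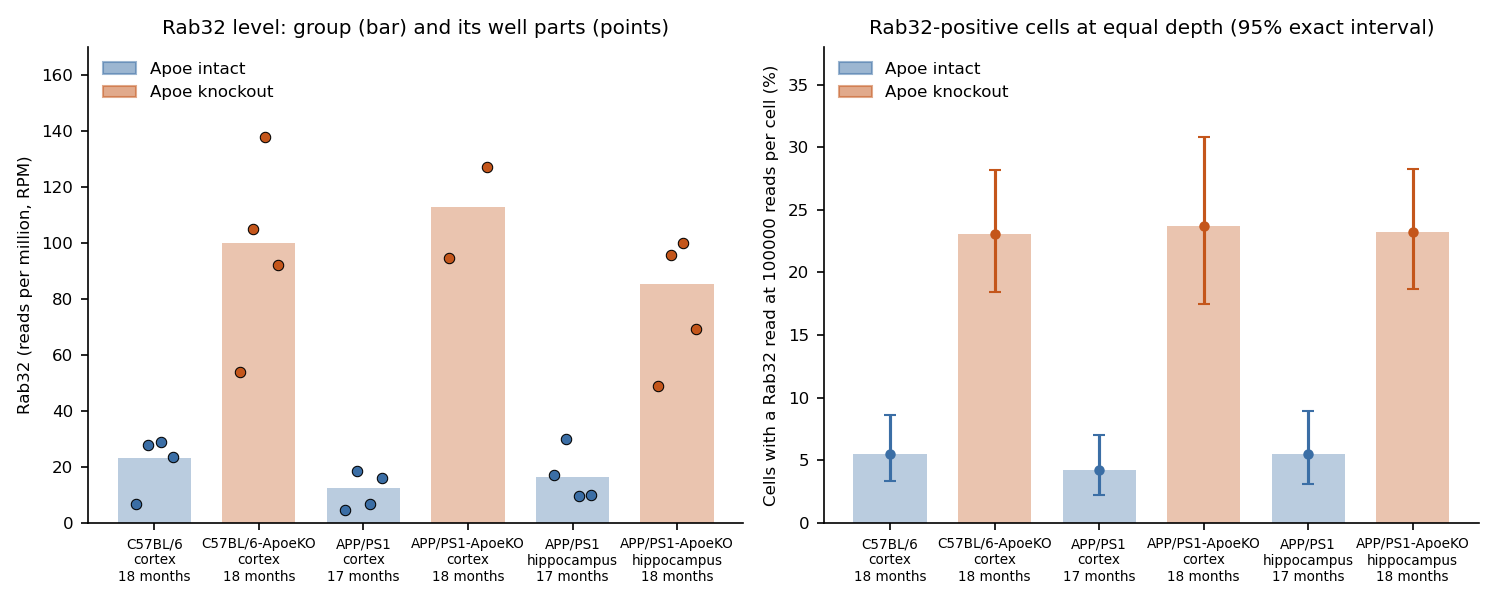
Left, Rab32 level (RPM) of each group (bars) and of the parts of its wells by plate number (points). Right, share of cells with a Rab32 read after thinning each cell to 100000 reads, with exact 95% intervals. The intervals cover the counting of cells only, not the spread between animals. The 3 knockout groups (orange) lie at 85.2 to 112.9 RPM and near 23% of cells, the 3 intact groups (blue) at 12.3 to 23.1 RPM and 4.18% to 5.52%.

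A fit of all 6 sums with additive terms for amyloid, Apoe knockout and tissue left 2 degrees of freedom and was run with edgeR's quasi-likelihood test over 18171 genes, 52 of them Rab members. For Rab32 it gave a log2 fold change with Apoe knockout of 2.44 (standard error 0.24), with p = 0.00018 and a Benjamini-Hochberg adjusted p of 0.246 over all genes in edgeR's test. Rab32 was therefore not called at an adjusted p of 0.05. No Rab member was called for Apoe knockout (background 0.0275% of genes, 5 genes), for amyloid (background 0% of genes) or for tissue (background 0% of genes). At an unadjusted p under 0.05, edgeR listed Rab23, Rab32 and Rab39b for knockout, Rab2a, Rab8b and Rab36 for amyloid and 0 members for tissue, where 7.61%, 4.45% and 3.15% of all genes were listed. DESeq2, with the same terms, called Rab32 (adjusted p = 5.2e-19), Rab23 (adjusted p = 0.0437) and Rab19 for knockout, Rab7b, Rab19 and Rab36 for amyloid and 0 members for tissue, out of 6.51%, 2.32% and 1.24% of all genes. The calls thus differed between the tools, and 3 of 52 members is near the share of all genes called for knockout.

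Beside Rab32, the members grouped with it by role, Rab29 and Rab20, showed no shared difference. Rab29, which recruits LRRK2 to the Golgi and lysosomes, was at 25.8 RPM in C57BL/6 and 18.05 in C57BL/6-ApoeKO cortex, 25.7 in APP/PS1 and 14.7 in APP/PS1-ApoeKO cortex, and 19.7 in APP/PS1 and 38.96 in APP/PS1-ApoeKO hippocampus. It was thus lower without Apoe in both cortices and higher in hippocampus. Rab20 was at 54.5 and 47.8 RPM in the C57BL/6 pair, 43.8 and 55.3 RPM in the APP/PS1 cortex pair and 30.2 and 63.8 RPM in the hippocampus pair, intact first. Its ratio in hippocampus was 2.11 (2.04 to 2.19), and there the 4 knockout parts (58.9 to 75.2 RPM) lay above the 4 intact ones (16.5 to 35.7 RPM).

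Of the known partners of Rab32, Hps4, a subunit of its exchange factor, was at 246.5 to 332.2 RPM, with the 3 knockout groups (304.6, 332.2 and 318.3 RPM) above the 3 intact ones (246.5, 290.96 and 270.5 RPM). In APP/PS1 cortex that difference was a log2 ratio of 0.19, smaller than the shift of -0.23 under TMM scaling there. Hps1, the other subunit, varied more, from 11.04 RPM in APP/PS1 hippocampus to 71.4 RPM in APP/PS1-ApoeKO cortex, and was higher without Apoe in each pair (38.1 against 22.5, 71.4 against 51.7 and 30.4 against 11.04 RPM). Ankrd27 was also higher without Apoe in each pair, at 48.3 against 32.3, 50.4 against 20.9 and 39.1 against 28.2 RPM. Among these ratios, those of Ankrd27 in APP/PS1 cortex (log2 ratio 1.25) and Hps1 in hippocampus (1.42) were at least 2-fold. Sgsm2, a GTPase-activating protein for Rab32, was lower without Apoe in C57BL/6 cortex, 2.52 against 6.89 RPM (log2 ratio -1.29), and at 7.05 against 5.49 RPM in APP/PS1 cortex and 2.28 against 2.45 RPM in hippocampus. With amyloid, Hps1 was at a log2 ratio of 1.18 where Apoe was intact and Sgsm2 at 1.32 where it was deleted. Lrrk2 was at most at 0.0906 RPM, while its relative Lrrk1 was at 124.6 to 174.6 RPM.

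Rab32 lies on chromosome 10, on the minus strand (chr10:10545002-10558265, GRCm38). Of the 21 genes of the table within 2 Mb on either side, 6 reached 1 RPM. Adgb, a globin gene whose end lies 0.0727 Mb away, was at 0 RPM in C57BL/6 and 0.881 in C57BL/6-ApoeKO cortex, 0.00531 in APP/PS1 and 3.45 in APP/PS1-ApoeKO cortex, and 0 in APP/PS1 and 2.70 in APP/PS1-ApoeKO hippocampus. It was the 1 neighbour at least 2-fold higher without Apoe in all 3 pairs (background 1.58% of genes), at these low levels. Adgb reached 1 RPM on average only through the knockout groups, so its direction is not independent of that filter. The other 5 were not, among them Utrn, which encodes utrophin, at log2 ratios of 0.88 (APP/PS1 cortex), 0.80 (hippocampus) and 0.88 (C57BL/6 cortex).

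Promoters from RefSeq (GRCm38.p6, 250 bases before to 50 after the start) were matched for 47 of the 57 members, with 59 promoters. Stretches around matches before the RefSeq start are shown for the role group that holds Rab32, with the matched letters in capitals. Rab20 also has a match to GAGGAA, on the reverse strand and 5 bases after its RefSeq start, which is not shown. The first pair holds the core of the myeloid factor PU.1 (GAGGAA, either strand, the second match on the reverse strand) before the RefSeq start of Rab32, and the third the CACGTG box bound by the lysosomal regulator TFEB, before that of Rab20. GENCODE's gene models begin further upstream, so the first and the third stretch lie inside the genes as that annotation draws them.
Rab32 at chr10:10558233-10558262: gtagccagggaaGAGGAAgtgccgggacca
Rab32 at chr10:10558412-10558441: gcagcatgaagcTTCCTCtaaagttaaact
Rab20 at chr8:11478669-11478698: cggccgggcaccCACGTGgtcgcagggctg
All 3 are read on the minus strand of the genome, 5′ to 3′. GAGGAA was found in 18.6% of the Rab promoters (11 genes) against 28.3% of all 32851 promoters, CACGTG in 10.2% (Rab5a, Rab20, Rab21, Rab23, Rab24 and Rab27a) against 7.15%, and the core of the interferon-stimulated response element in 1.69% (Rab19) against 3.44%. These are matches of letters in a window, searched on both strands, and say nothing of binding.

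Differences of at least 2-fold with the loss of Apoe, computed with 0.5 RPM added to both groups, were counted beside their share over all genes. In APP/PS1 cortex 9 of 43 members were at least 2-fold higher without Apoe (background 16.2% of genes) and 1 was lower (10.4%); adding the cortex cells whose labels give no read total left 4 members at least 2-fold apart in place of 10. With TMM scaling, edgeR's correction for composition, 6 were higher (11.9% of genes) and 3 lower (13.2%). In APP/PS1 hippocampus 4 were higher (background 12.6%) and 3 lower (8.46%), and 12 were 2-fold apart without the wells of plate 3. In C57BL/6 cortex 2 were higher (background 10.4%) and 3 lower (8.19%). Rab32 and Rab23 were the 2 members higher in all 3 pairs (background 1.58% of genes), and 0 members were lower in all 3 (1.18%). The median log2 ratio of the 43 members was 0.39 in APP/PS1 cortex, 0.15 in hippocampus and 0.02 in C57BL/6 cortex, against 0.19, 0.07 and 0.04 over all 12703 genes. In APP/PS1 cortex 35 of the 43 were above a ratio of 1, and 28 were with TMM scaling, which moved the median of all genes by -0.23.

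Rab23, a ciliary Rab known as a brake on Hedgehog signalling, was read in few cells. Its level was 1.12 RPM in C57BL/6 and 4.84 in C57BL/6-ApoeKO cortex, 3.32 in APP/PS1 and 9.59 in APP/PS1-ApoeKO cortex, and 5.13 in APP/PS1 and 12.9 in APP/PS1-ApoeKO hippocampus. The reads came from 5 and 5, 5 and 4, and 9 and 11 cells of the pairs, so the number of cells with a read hardly differed, and 1 cell held up to 52.03% of a group's reads. The parts of the wells overlapped in all 3 pairs. Adding the APP/PS1-ApoeKO cortex cells whose labels give no read total, the log2 ratio in cortex with amyloid was 0.53 in place of 1.40, and it was 0.20 without the wells of plate 3.

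Leaving size aside, 13 of the 43 members were above a ratio of 1 without Apoe in all 3 pairs and 2, Rab11b and Rab39, were below it, as were 21.6% and 11.9% of all genes. With TMM scaling 10 and 3 members were, against 16.1% and 16.9% of all genes, and Rab4b, Rab5c and Rab6a were no longer among the higher ones.

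Of the early endosomal members, Rab31 was at 308.7 and 290.05 RPM in the C57BL/6 pair, 262.5 and 320.8 RPM in the APP/PS1 cortex pair and 210.6 and 311.95 RPM in the hippocampus pair, intact first, with no ratio of 2-fold. Rab5b, which with Rab5a and Rab5c organises early endosomes, was at 25.8 RPM in C57BL/6 and 40.9 in C57BL/6-ApoeKO cortex, 19.5 and 31.5 RPM in the APP/PS1 cortex pair and 26.4 and 37.6 RPM in the hippocampus pair. Its log2 ratios of 0.65, 0.68 and 0.51 were above 0 in all 3 pairs and under 2-fold in each. Rab5a was at 23.99 to 38.8 RPM and Rab5c at 12.9 to 24.3 RPM. Rab21, which carries integrins inwards, was at 8.74 RPM in APP/PS1 and 23.8 RPM in APP/PS1-ApoeKO cortex (ratio 2.72, 2.55 to 2.92), with parts that did not overlap. It was at 20.6 and 13.6 RPM in the hippocampus pair and 16.3 and 19.5 RPM in the C57BL/6 pair, so the difference in cortex with amyloid was not seen in the others. In the APP/PS1 cortex pair 2 parts stand against 4. The parts of Rab2b, Rab3d, Rab4b, Rab5b, Rab6b, Rab7, Rab7b, Rab11b, Rab12, Rab19, Rab32 and Rab39 did not overlap there either. Rab22a ran from 12.3 RPM in APP/PS1 hippocampus to 32.3 RPM in C57BL/6 cortex.

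Late endosomal and recycling members followed. Rab7 was at 197.9 and 220 RPM in the C57BL/6 pair, 195.5 and 257.1 RPM in the APP/PS1 cortex pair and 180 and 189.01 RPM in the hippocampus pair. Its log2 ratios without Apoe were 0.15, 0.39 and 0.07. Rab9, which returns mannose 6-phosphate receptors to the Golgi, was at 18.8 to 26.3 RPM. Rab11a, of the slow recycling route, was at 243.2 and 214.2 RPM in the C57BL/6 pair, 167.7 and 208.8 RPM in the APP/PS1 cortex pair and 147.02 and 186.9 RPM in the hippocampus pair, lower without Apoe in the first and higher in the others. Rab11b was at 70.1 to 85.8 RPM. Rab35, of the fast recycling route, was at 16.1 RPM in APP/PS1 and 7.04 RPM in APP/PS1-ApoeKO hippocampus, 2.28-fold lower (2.12 to 2.46), with overlapping parts, and at 12.6 to 22.1 RPM in the cortex groups. Rab4a, also of fast recycling, was at 3.63 to 10.1 RPM from 4 to 12 cells a group, and differed in opposite directions in the APP/PS1 tissues.

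Among members of the endoplasmic reticulum and Golgi, Rab39, linked to phagosome acidification, was lower without Apoe in each pair, at 71.1 against 83.6, 58.3 against 99.8 and 90.8 against 94.98 RPM. Each of these differences was under 2-fold, and the last was small. Rab6b was higher without Apoe in each pair, at 35.8 against 29.7, 58.03 against 38.4 and 52.4 against 32.5 RPM, each under 2-fold. Rab2b, a Golgi member, was at 5.24 RPM in APP/PS1 and 11.5 RPM in APP/PS1-ApoeKO cortex (ratio 2.20, 2.002 to 2.41). The parts of Rab2b did not overlap, but in that pair neither did those of Rab4b, Rab6b, Rab12 and Rab39. Its exons overlap Tox4 on the other strand. Rab2a (46.9 to 77.9 RPM), Rab6a (25.4 to 34.1 RPM), Rab18 of lipid droplets (69.5 to 105.3 RPM), and Rab33b, a partner of the autophagy protein Atg16l1 (17.2 to 28.8 RPM), were under 2-fold apart in every comparison. Of the secretory members, Rab8b (60.1 to 110.7 RPM), Rab10 (39.2 to 54.6 RPM) and Rab27a of secretory lysosomes (23.4 to 30.6 RPM) were too. Rab12, which steers receptors to lysosomal degradation, was at 13.1 and 25.5 RPM in the C57BL/6 pair, 14.3 and 27.99 RPM in the APP/PS1 cortex pair and 15.8 and 16.8 RPM in the hippocampus pair, just short of 2-fold in both cortices (log2 ratios of 0.94) and near equal in hippocampus. Rab34 (15.9 to 28.9 RPM), Rab28 (17.3 to 29.3 RPM), Rab43 (3.93 to 9.54 RPM) and Rab4b (4.11 to 7.30 RPM) were under 2-fold apart in every comparison. Rab13 stayed at or under 4.40 RPM and Rab19 at or under 4.12 RPM, from at most 5 cells a group. Rab3d, of regulated secretion, was at 10.6 RPM in APP/PS1 and 25.6 RPM in APP/PS1-ApoeKO cortex and at 6.17 and 2.20 RPM in the hippocampus pair, from 5 to 12 cells a group.

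**Figure D3:**
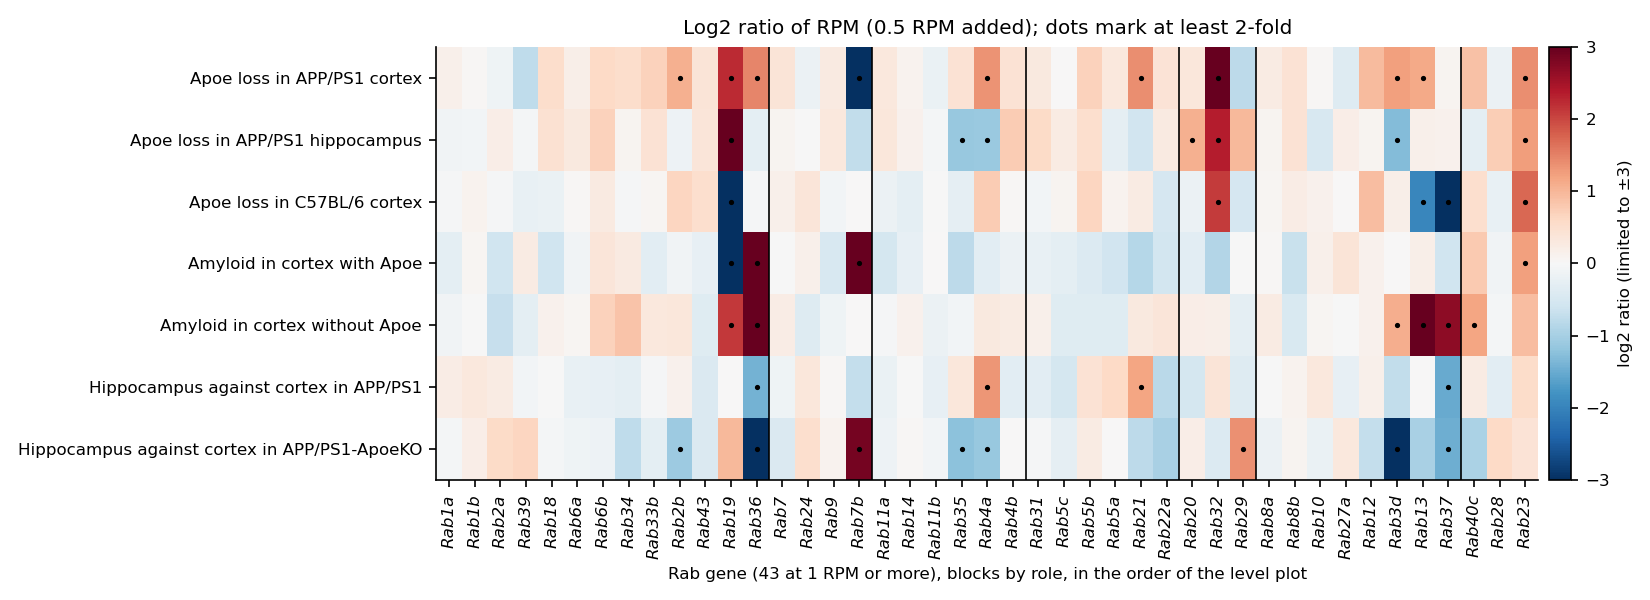
Log2 ratio of RPM (0.5 RPM added) of the 43 members in the 7 comparisons, in blocks by role, with dots at 2-fold or more and the colour limited to 3 in either direction. Rab32 and Rab23 are dotted in all 3 rows of Apoe loss; most of the other cells are pale, and most dots fall on members read in few cells.

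Amyloid was compared in cortex alone. APP/PS1 was set against C57BL/6 where Apoe was intact, and APP/PS1-ApoeKO against C57BL/6-ApoeKO where it was deleted. With Apoe, 3 of 43 members were at least 2-fold higher (background 8.29% of genes) and 1 was lower (10.8%); 9 were 2-fold apart without the wells of plate 2 and 8 without those of plate 4. Without Apoe, 6 were higher (background 10.9%) and 0 lower (10.5%). Rab36, a Golgi member, was the 1 higher in both (background 1.73%), and 0 members were lower in both (2.35%). It was at 0.00828 RPM in C57BL/6, 5.06 in APP/PS1, 0 in C57BL/6-ApoeKO and 14.9 in APP/PS1-ApoeKO cortex. These levels came from 2, 4, 0 and 3 cells, and a single cell held 66.97% of the reads in the last group. The median log2 ratio of the 43 members was -0.17 with Apoe and 0.13 without it, against -0.10 and 0.05 over all genes.

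Of the members with a mean of at least 20 RPM, none was 2-fold apart with amyloid. Rab32 was 1.88-fold lower (1.79 to 1.98) in APP/PS1 than in C57BL/6 cortex, and 1.13-fold higher (1.10 to 1.16) in APP/PS1-ApoeKO than in C57BL/6-ApoeKO cortex. Its parts overlapped in both comparisons (4.40 to 18.6 against 6.53 to 28.9 RPM, and 94.7 to 127.1 against 53.7 to 137.7 RPM). Rab2a was lower with amyloid in both, at 51.7 against 77.9 RPM and 46.9 against 75.5 RPM. Rab8b was too, at 60.1 against 95.3 RPM and 80.9 against 110.7 RPM. In edgeR's fit the log2 fold change with amyloid was -0.62 (standard error 0.21) for Rab2a and -0.54 (standard error 0.17) for Rab8b, with an adjusted p of 0.917 for both. All 6 early endosomal members were below a ratio of 1 in APP/PS1 against C57BL/6 cortex, with a median log2 ratio of -0.47, as were 56.6% of all genes (median -0.10), and 3 of 6 without Apoe, with a median of -0.11.

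Rab7b, a late endosomal member that controls traffic to the trans-Golgi network, was read in APP/PS1 tissue and not in the C57BL/6 groups. No reads were found in C57BL/6 (0 cells, which allows a share of cells with a read of up to 0.920%), in C57BL/6-ApoeKO (0 cells, up to 0.958%) or in APP/PS1-ApoeKO cortex (0 cells, up to 1.78%). These limits cover counting of cells with a read, not of cells that express the gene, and not the spread between animals. It was at 9.46 RPM in APP/PS1 cortex (7 cells), 5.55 RPM in APP/PS1 hippocampus (2 cells) and 3.15 RPM in APP/PS1-ApoeKO hippocampus (2 cells). All 4 parts of APP/PS1 cortex had reads, from 4.79 to 20.03 RPM, and the gene reached 1 RPM on average only through the groups where it was read. Adding the APP/PS1-ApoeKO cortex cells whose labels give no read total, the log2 ratio of hippocampus to cortex turned from 2.87 to -0.19, so the gene was read among those cells. Rab40c, a subunit of a ubiquitin ligase, was at 12.4 RPM in C57BL/6-ApoeKO and 28.7 RPM in APP/PS1-ApoeKO cortex (ratio 2.32, 2.19 to 2.46), and at 8.58 RPM in C57BL/6 and 15.2 RPM in APP/PS1 cortex, from 9 to 20 cells a group.

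Hippocampus and cortex were compared in both amyloid lines. In APP/PS1 mice, whose tissues shared lanes, 2 of 43 members were at least 2-fold higher in hippocampus (background 7.56% of genes) and 2 lower (8.38%), with 2 apart in all without the wells of plate 1 and 13 within 1 of the lanes. In APP/PS1-ApoeKO mice, 2 were higher (background 9.93%) and 6 lower (11.5%), with 14 apart in all without the wells of plate 4 and 5 with the further cortex cells. With TMM scaling 3 were higher (11.7% of genes) and 4 lower (8.99%). Rab36 and Rab37, a granule member, were the 2 lower in both (background 1.94%), from 1 to 4 cells a group, and 0 were higher in both (1.77%). Rab29 was higher in hippocampus without Apoe, 38.96 against 14.7 RPM (ratio 2.65, 2.48 to 2.83), but its 4 hippocampal parts (7.19 to 57.7 RPM) overlapped the 2 cortical ones (12.05 and 16.8 RPM). Rab21 was higher in hippocampus of APP/PS1 mice (ratio 2.35, 2.22 to 2.497), with parts that did not overlap, and lower without Apoe (13.6 against 23.8 RPM). Rab32 differed by 1.32-fold (1.25 to 1.40) in APP/PS1 mice, higher in hippocampus, and by 1.33-fold (1.29 to 1.36) in APP/PS1-ApoeKO mice, lower there.

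Within each group, cells were ranked by the mean log level of 16 genes known from plaque-associated microglia, such as Cst7, Clec7a and Axl, and the upper tercile of cells was set against the lower, with no test. The upper tercile was also deeper (median 454958 to 805212 reads against 408486 to 666556), and the part of depth in these values was not tested. Rab11a and Rab14 were lower in the upper tercile in all 6 groups, by a log2 ratio of -0.51 to -0.01 and -0.69 to -0.04, and so was Rab39 (-2.30 to -0.04). Rab7 was higher in 5 of 6 groups, for example 264.7 against 166.1 RPM in APP/PS1 cortex, and Rab9, Rab1b, Rab27a and Rab5b were higher in 5 of 6 as well. The share of all genes that went 1 way in 5 or 6 of the groups is not given here, so these counts do not set the members apart. Rab5a, Rab6a, Rab20, Rab21 and Rab24 were lower in 5 of 6, Rab20 for example at 31.2 against 47.5 RPM in APP/PS1 cortex and 36.7 against 81.5 RPM in APP/PS1-ApoeKO hippocampus.

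Rab32 did not follow the activated genes in 1 direction. In C57BL/6 cortex it was at 25.03 RPM in the upper and 27.003 RPM in the lower tercile. In APP/PS1 cortex and hippocampus it was higher in the upper tercile, 17.4 against 5.62 RPM and 22.5 against 6.60 RPM. In C57BL/6-ApoeKO cortex it was at 108.1 against 90.1 RPM. It was lower in the upper tercile of both APP/PS1-ApoeKO tissues, 65.1 against 80.5 RPM in cortex and 61.9 against 118.2 RPM in hippocampus. In both terciles each knockout group was above its intact counterpart. Among the ranked cells, all 11 with a Rab7b read lay in the upper tercile: 7 of APP/PS1 cortex, 2 of APP/PS1 hippocampus and 2 of APP/PS1-ApoeKO hippocampus, with 0 in the lower terciles. The APP/PS1-ApoeKO cortex cells whose labels give no read total were not ranked, and Rab7b was read among them.

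**Figure D4:**
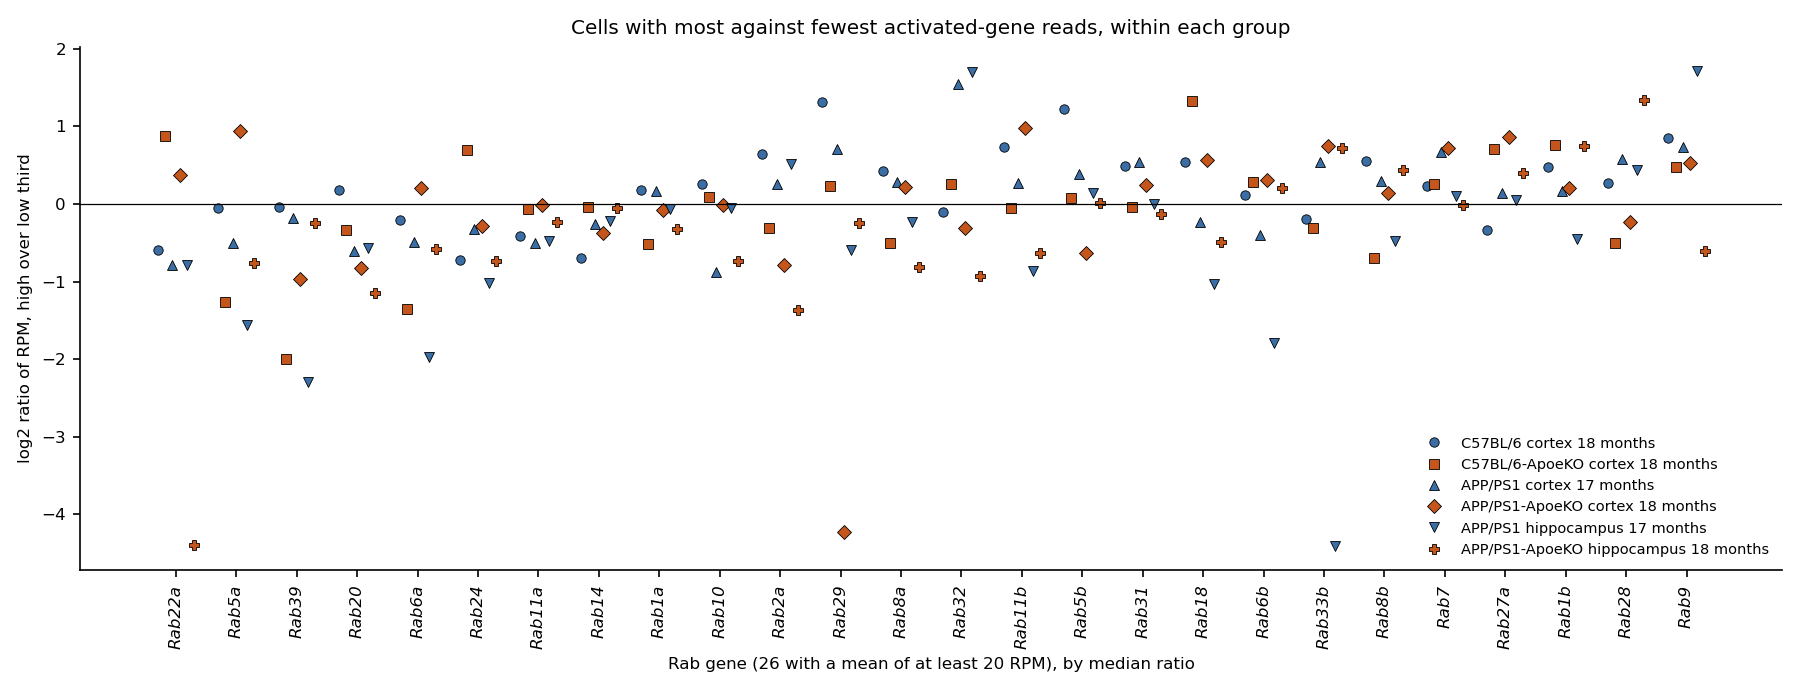
Log2 ratio of RPM between the tercile of cells with the highest and the tercile with the lowest mean level of 16 activated-microglia genes, for the 26 members with a mean of at least 20 RPM; each symbol is 1 group. Rab11a, Rab14 and Rab39 lie below 0 in all 6 groups, Rab7 and Rab9 above 0 in 5, and Rab32 reaches 1.54 and 1.70 in the APP/PS1 groups and -0.93 in APP/PS1-ApoeKO hippocampus.

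The machinery that acts on Rab proteins was described from lists of known regulators and effectors. Over all genes, 16.2% were at least 2-fold higher and 10.4% lower without Apoe in APP/PS1 cortex, 12.6% and 8.46% in hippocampus and 10.4% and 8.19% in C57BL/6 cortex. In APP/PS1 cortex, 2 of 9 measured genes of prenylation and membrane recycling were at least 2-fold higher and 0 lower, as were 4 and 2 of 36 exchange factors, 3 and 5 of 33 GTPase-activating proteins and 6 and 5 of 41 effectors. In hippocampus the counts were 1 and 0, 2 and 1, 2 and 1, and 4 and 6, and in C57BL/6 cortex 0 and 0, 1 and 1, 2 and 4, and 3 and 3, in the same order. Gdi2, which extracts Rab proteins from membranes, was at 431 to 531 RPM. The median log2 ratio of the exchange factors was 0.12, 0.24 and 0.01 in the 3 pairs, and that of the effectors 0.05, 0.09 and 0.08. That of the prenylation and recycling genes was 0.29, -0.14 and -0.06, and that of the GTPase-activating proteins 0.33, 0.15 and 0.07, against 0.19, 0.07 and 0.04 over all genes.

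Single genes of these lists stood further apart. Those named here and in the next paragraph are the 2 highest and 2 lowest per comparison, so they are extremes by choice. The number of cells behind their reads, their parts and their values under the alternatives are not given here. Ehbp1, an adaptor of Rab8 and Rab10 in recycling, was at 23.1 RPM in APP/PS1-ApoeKO and 4.86 in APP/PS1 cortex, and at 6.91 and 1.66 RPM in hippocampus. Tbc1d22b, a Golgi GTPase-activating protein, was lower without Apoe in cortex, at 0.0401 against 6.88 RPM with amyloid and 1.21 against 6.33 RPM in the C57BL/6 pair. Rilpl2, an effector of LRRK2-modified Rabs, was at 5.51 against 21.7 RPM in APP/PS1 cortex, while Dennd3, an exchange factor of Rab12, was at 5.11 against 1.05 RPM. In hippocampus Als2cl (2.10 against 12.7 RPM) and Mical1 (11.7 against 36.6 RPM) were lower and Tbc1d7 higher (13.7 against 2.51 RPM) without Apoe. In the C57BL/6 pair Erc1 (1.18 against 18.7 RPM) was lower, and Optn, a Rab8 effector in autophagy (12.8 against 2.48 RPM), and Rab11fip3, a Rab11 effector (7.18 against 0.0166 RPM), were higher.

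With amyloid and Apoe, Dennd2c (15.9 against 51.3 RPM) and Dennd2d (2.76 against 8.22 RPM) were lower than in C57BL/6 cortex, and the motor Myo5a (51.4 against 8.51 RPM) and Rab11fip3 (9.25 against 0.0166 RPM) were higher. With amyloid and without Apoe, Rabepk (3.08 against 16.03 RPM) and Tbc1d7 (4.09 against 14.2 RPM) were lower, and Dennd3 (5.11 against 1.34 RPM) and Erc1 (6.55 against 1.18 RPM) higher. Between the tissues, Dennd2d was higher in hippocampus in both lines, at 14.7 against 2.76 RPM in APP/PS1 and 11.04 against 0.522 RPM in APP/PS1-ApoeKO mice. In APP/PS1 mice Wdr91, a Rab7 effector, was also higher (25.2 against 10.1 RPM), and Tbc1d22b (0.320 against 6.88 RPM) and Hps1 (11.04 against 51.7 RPM) were lower. In APP/PS1-ApoeKO mice Rabepk was higher (21.5 against 3.08 RPM) and Als2cl (2.10 against 11.1 RPM) and Ehbp1 (6.91 against 23.1 RPM) lower.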

How the data were processed

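The authors deposited whole-number read counts per gene and cell from SmartSeq2 libraries. The submitters' processing notes list the build mm10, featureCounts 1.5.1, STAR 2.5.2 and Seurat 2.3.1 without saying what each did. Members and lists were chosen with earlier results of these data known. Summed were the cells with a read total in the labels: 326 of C57BL/6, 313 of C57BL/6-ApoeKO, 311 of APP/PS1 and 169 of APP/PS1-ApoeKO cortex, and 273 of APP/PS1 and 321 of APP/PS1-ApoeKO hippocampus. Another 165 APP/PS1-ApoeKO cortex cells entered an alternative. APP/PS1 mice of 18 months were not analysed here. Exon lengths and positions came from GENCODE vM21. Ratios had exact 95% intervals and a group without reads a floor of 3 reads. Named with values were members with a mean of at least 20 RPM, those reaching 5 RPM and 2-fold apart in a comparison, Rab32 and Rab29, and the 2 highest and 2 lowest list genes per comparison; Rab5c, Rab13, Rab19, Rab39b and Adgb were named after their values were seen. No 2 cells held identical counts. Fits used edgeR 4.0.16 and DESeq2 1.42.0 (R 4.3.3), tested on simulated data first; other steps used Python 3.11.15 with scipy 1.17.1. Alternatives were other filters, scalings, single lanes and plate numbers left out.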

Additional observations from a re-analysis of the deposited data

Results flagged for a closer look

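Rab3d, Rab4a, Rab13 and Rab19 were at least 2-fold apart in opposite directions in comparisons of the same kind; none of these differences between comparisons was tested, and the comparisons share control groups in part. The log2 ratio of Rab3d with the loss of Apoe was 1.23 in APP/PS1 cortex (8 against 12 cells with a read) and -1.30 in hippocampus (5 against 5 cells), a difference of 2.53. That of Rab4a was 1.36 in cortex (4 against 10 cells) and -1.11 in hippocampus (10 against 12 cells), a difference of 2.47. Between hippocampus and cortex, Rab4a had a log2 ratio of 1.33 in APP/PS1 and -1.14 in APP/PS1-ApoeKO mice, again 2.47 apart, since the same 4 groups enter. Rab13, of epithelial junctions, had 1.13 with the loss of Apoe in APP/PS1 cortex (3 against 2 cells) and -1.96 in C57BL/6 cortex (1 against 3 cells), a difference of 3.10. Rab19 had 2.23 in APP/PS1 cortex (2 against 0 cells) and 3.21 in hippocampus (5 against 0 cells) but -3.10 in C57BL/6 cortex (1 against 3 cells), differences of 5.33 and 6.31. With amyloid, Rab19 had -3.20 where Apoe was intact and 2.13 where it was deleted, a difference of -5.33. All of these values rest on at most 12 cells with a read in a group.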

How the results depend on the processing

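Of 418 values of single members under the alternatives, 410 kept their direction and 8 turned. Only members already at least 2-fold apart entered this count. The other filters leave a ratio unchanged and a smaller added RPM cannot change its sign. Those values kept their direction by construction, so the count is no measure of how stable the members are. Rab32 stayed higher without Apoe throughout, at log2 ratios of 2.90 to 3.40 in APP/PS1 cortex, 1.99 to 2.80 in hippocampus and 1.81 to 2.56 in C57BL/6 cortex. Leaving out a plate number gave -3.08 to 2.66 for Rab36 and -2.94 to 3.62 for Rab4a (Apoe loss, APP/PS1 cortex), -0.47 to 1.63 for Rab23 (amyloid with Apoe), -3.66 to 0.20 for Rab37 (tissue, APP/PS1), and -2.41 to 2.94 for Rab4a and -3.16 to 2.19 for Rab37 (tissue, APP/PS1-ApoeKO). Rab37 was at 0.26 within lane mglia42, and Rab7b at -0.19 between the APP/PS1-ApoeKO tissues with the cells whose labels give no read total; the causes were not tested. With a mean of at least 5 RPM, 6 members were 2-fold apart with Apoe loss in APP/PS1 cortex, 2 in C57BL/6 cortex, 1 and 2 with amyloid with and without Apoe, and 2 and 5 between tissues in APP/PS1 and APP/PS1-ApoeKO mice, since fewer genes entered. With no filter on low values, the counts were 11 for C57BL/6 cortex, 10 for amyloid without Apoe and 8 between the APP/PS1 tissues. The further cells gave 4 for Apoe loss in APP/PS1 cortex and 5 between the APP/PS1-ApoeKO tissues, and lane mglia41 alone gave 13 between the APP/PS1 tissues. Without 1 plate number at a time, counts ran from 8 to 12 (Apoe loss, hippocampus), 4 to 9 (amyloid with Apoe), 2 to 6 (tissue, APP/PS1) and 6 to 14 (tissue, APP/PS1-ApoeKO). DESeq2 called 3 members for Apoe knockout and 3 for amyloid where edgeR called 0. No paired analysis was possible because the replicate numbers name wells of a plate and each group is 1 sample. A single read weighs most on members found in few cells, and a group without reads had a floor of at most 0.0401 RPM.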
